A study of Mus musculus with 4 samples.

Results

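The genes described here are the core of the MHC class I antigen presentation machinery, 10 of the 25239 gene symbols counted in each library. They were chosen by name, as classical class I, peptide loading and immunoproteasome genes, and all 10 passed the filter on low counts. The study asked how lung tumor-infiltrating CD4+ T cells change when they cannot respond to activin-A, and RNA was sequenced from 4 libraries, with the labels WT (n = 2) and CD4/ALK4-KO (n = 2). The CD4/ALK4-KO mice were CD4CreERT2+/-/Acvr1bfl/fl, in which tamoxifen switches on a Cre recombinase driven by the *Cd4* promoter that removes *Acvr1b*, the gene of the activin type I receptor ALK4, and the labels describe the other group only as WT. The methods give 5 daily doses of 75 mg/kg of tamoxifen for the CD4/ALK4-KO mice, and whether WT mice received it is not stated there. The background named is C57BL/6, though the methods do not state it for the *Acvr1b* floxed line or for the cross. By the methods the mice were males of 8 to 10 weeks. All carried lung tumors of LLC-OVA cells (Lewis lung carcinoma with an ovalbumin transgene) injected intravenously. The labels give excision after 18 to 22 days, whereas the methods give 16 to 20 days for the knockout experiment. CD4+ T cells were isolated with commercial kits from the leukocyte fraction of a Percoll gradient. No label says how many mice went into a library or that the 2 libraries of a genotype came from separate animals, so p-values measure only the spread between these libraries.

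MHC class I molecules display peptides from inside the cell to CD8+ T cells. A heavy chain, here *H2-K1* (H-2K), *H2-D1* (H-2D) or the class Ib chain *H2-T23* (Qa-1, a ligand of the CD94/NKG2A receptor), pairs with beta-2 microglobulin (*B2m*). Peptides are cut by the proteasome, in which interferon-induced subunits such as *Psmb8* (LMP7) and *Psmb9* (LMP2) replace constitutive ones. The *Tap1* and *Tap2* proteins pump the peptides into the endoplasmic reticulum, and tapasin (*Tapbp*) helps load them. *Nlrc5* encodes the class I transactivator, which binds class I promoters through the RFX complex. Nearly every nucleated cell carries class I molecules, leukocytes in large amounts, and interferon-gamma raises the whole set.

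Most of the genes lie in the major histocompatibility complex on chromosome 17 (GRCm38, the build named mm10 in the processing notes, GENCODE M21). From one end to the other these are *Tapbp* (33915899 to 33929292, plus strand), *H2-K1* (33996017 to 34000347, minus), *Psmb9* (34181987 to 34187764, minus), *Tap1* (34187553 to 34197225, plus), *Psmb8* (34197721 to 34201454, plus), *Tap2* (34203527 to 34216321, plus), *H2-D1* (35262730 to 35267499, plus) and *H2-T23* (36029773 to 36032855, minus). *B2m* lies on chromosome 2 (122147686 to 122153083, plus) and *Nlrc5* on chromosome 8 (94434356 to 94527272, plus). *Psmb9* and *Tap1* stand head to head and share 212 bp of annotated exon on opposite strands. The library kit does not mark strand, so reads from those bases cannot be told apart.

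The promoters of the heavy chain genes and of *B2m* are shown because *H2-K1* passed the test described later and *H2-D1* and *B2m* did not. The sequences are RefSeq's for GRCm38.p6, read 5′ to 3′ along the gene, and capitals mark matches to the motifs named after them. RefSeq promoters were matched for 8 of the 10 genes, all but *Tap2* and *Nlrc5*. Upstream of *H2-K1*, the stretch chr17:34000348-34000527 (minus strand) runs up to the base before the start, and upstream of *B2m*, chr2:122147517-122147676 (plus strand) ends 11 bases before it.
H2-K1: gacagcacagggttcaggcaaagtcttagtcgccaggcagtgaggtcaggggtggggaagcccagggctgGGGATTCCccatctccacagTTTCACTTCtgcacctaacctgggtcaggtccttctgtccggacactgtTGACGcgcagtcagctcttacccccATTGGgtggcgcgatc
B2m: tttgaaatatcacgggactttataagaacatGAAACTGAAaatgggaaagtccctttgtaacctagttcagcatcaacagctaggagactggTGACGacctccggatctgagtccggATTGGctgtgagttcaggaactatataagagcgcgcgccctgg

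The motifs were searched on both strands in the 250 bases before each RefSeq start. Some of these starts lie inside the gene as GENCODE draws it. Of the last 180 bases before them, GENCODE annotates all as exon of the same gene for *H2-D1*, *Psmb8* and *Psmb9*. The same holds for 154 bases of *H2-T23* and 146 of *Tapbp*. For *Tap1* all 180 are exon of *Psmb9*, and for *H2-K1* none are exon. The letters GGGATTCC (NF-kappaB type) were in 2 of the 8 promoters, *H2-K1* and *H2-D1*, and in 0.889% of all 32851 promoters. GAANNGAAA, a second interferon response form added after the sequences had been seen, was in the same 2 promoters and in 6.31% of all. GAAANNGAA, the interferon response form searched first, was in *B2m* and *H2-T23* and in 7.13% of all promoters. TGACG (the CREB or X2 box type, to which factors of the class I enhanceosome bind) was in 5 of the 8, namely *H2-K1*, *H2-D1*, *B2m*, *Tap1* and *Psmb9*, and in 17.8% of all. CCAAT (NF-Y or Y box type) was in 7 of the 8, all but *Psmb8*, and in 33.8% of all, and TTCNNNGAA (STAT type) was in *Psmb8* and in 7.02% of all. The 2 interferon forms can overlap each other, and *Tap1* and *Psmb9* lie so close together that their windows cover the same TGACG.

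The blocks of the 2 classical heavy chain promoters were cut to begin and end at the same motif letters. Those letters therefore match by construction and count among the identical bases given below. The first block starts at the NF-kappaB type letters and ends with the interferon type letters. It lies at chr17:34000429-34000457 (minus strand) for *H2-K1* and chr17:35262924-35262952 (plus strand) for *H2-D1*, and 28 of its 29 bases are the same.
H2-K1: GGGATTCCccatctccacagTTTCACTTC
H2-D1: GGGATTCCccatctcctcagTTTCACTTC
The second block runs from TGACG to ATTGG, the reverse complement of CCAAT, at chr17:34000359-34000388 (minus strand) and chr17:35262993-35263022 (plus strand), and 23 of its 30 bases are the same.
H2-K1: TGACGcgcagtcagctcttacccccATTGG
H2-D1: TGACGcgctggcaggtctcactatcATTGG
The corresponding letters of *Tap1* (chr17:34187458-34187486, plus strand) and the interferon type letters of *H2-T23* (chr17:36032806-36032834, minus strand) are shown with short flanks. These stretches were cut closely around the letters, so they cannot show whether a second motif lies nearby. In the full windows, CCAAT type letters were at -222 from the start in *Tap1* and at -52 in *H2-T23*.
Tap1: cccagagacaggTGACGacagagggtcct
H2-T23: tcctactgctTTCTCTTTCataaagacac

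Total counts were 11823908 to 13943237 per library, and the class I presentation genes held 0.679% to 1.00% of them. The targeted gene *Acvr1b* had 342 to 426 counts in WT and 322 to 445 in CD4/ALK4-KO (log2 fold change 0.16, standard error 0.24, edgeR adjusted p = 0.66), so it did not separate the genotypes and every direction here is between the libraries as labelled. These counts are per gene and from all cells of a library, so they do not measure removal of the gene in CD4+ T cells. The label CD4+ T cells was checked against marker lists. T cell markers summed to 468 and 508 CPM (counts scaled to the TMM-adjusted library size) in WT and to 2601 and 2706 in CD4/ALK4-KO, whereas macrophage and monocyte markers summed to 7410 to 8835 and fibroblast markers to 6250 to 9257 across the 4 libraries. The sums of both lists exceeded that of T cell markers in every library, and T cell markers differed 5.44-fold between the genotypes. *Trac*, *Trbc1* and *Trbc2* are not among the counted symbols and so are missing from the T cell sum. *Lyz2* alone held 4227 to 5687 CPM of the macrophage and monocyte sum. Sums over different genes do not rank the amounts of the cell types. In such bulk RNA, fewer cells of a type and less RNA per cell cannot be told apart.

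With the usual scaling of whole libraries (TMM), 7 of the 10 class I presentation genes rose in the libraries labelled CD4/ALK4-KO: *H2-K1*, *H2-T23*, *Tap1*, *Tap2*, *Psmb8*, *Psmb9* and *Nlrc5*. *H2-D1*, *B2m* and *Tapbp* did not pass the test. None was lower, also at an unadjusted p under 0.05 and with DESeq2. Of all 13919 genes tested, 17.4% were called higher and 15.4% lower at an edgeR adjusted p under 0.05, and in 32.7% both CD4/ALK4-KO libraries were above both WT libraries. On the log2 scale the 10 genes had a median change of 0.87, with a range from 0.04 to 2.25, against a median of -0.0082 over all genes tested. Without WT replicate 2 the test called 2 of them, *Nlrc5* and *Psmb8*, and the median was 0.66.

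**Figure D1:**
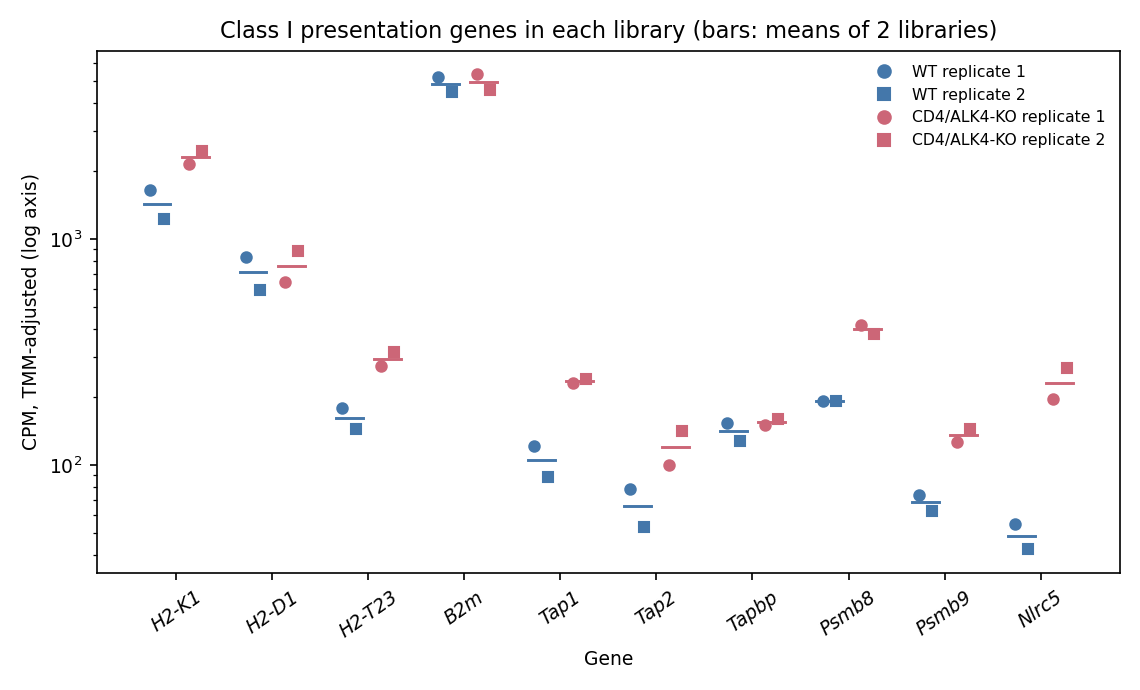
Levels of the 10 class I presentation genes in CPM (log axis) in each library, WT in blue and CD4/ALK4-KO in red, with circles for replicate 1, squares for replicate 2 and bars for the means of 2 libraries. CD4/ALK4-KO lies apart above WT for 7 genes, as it does for 32.7% of all genes tested, and overlaps it for *H2-D1*, *B2m* and *Tapbp*, and *Nlrc5* has the widest gap, from 48.5 to 232 CPM.

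Among the heavy chains, *H2-K1*, the H-2K chain, had 22551 and 16512 counts in WT and 25441 and 30337 in CD4/ALK4-KO. Its level was 1433 ± 300 CPM in WT and 2297 ± 226 CPM in CD4/ALK4-KO (SD, n = 2 each), and the log2 fold change was 0.68 (standard error 0.21, edgeR adjusted p = 0.0138). The genotypes did not overlap, but the call rested on both WT libraries: without WT replicate 2 the log2 fold change was 0.47 (adjusted p = 0.37), and without WT replicate 1 it was 0.91 (adjusted p = 0.074).

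*H2-D1*, the H-2D chain, did not follow. It had 11396 and 8009 counts in WT and 7660 and 10900 in CD4/ALK4-KO. In CPM the order alternated between the genotypes, with 832 and 592 in WT and 644 and 883 in CD4/ALK4-KO. The log2 fold change was 0.10 with a 95% interval from -0.37 to 0.57 (edgeR adjusted p = 0.77). The difference was smaller than the spread between replicates.

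The class Ib chain *H2-T23* had 2450 and 1953 counts in WT and 3263 and 3887 in CD4/ALK4-KO. Both CD4/ALK4-KO libraries were above both WT libraries, at 294 ± 28.8 against 162 ± 24.3 CPM, and the log2 fold change was 0.87 (standard error 0.22, edgeR adjusted p = 0.0046). Reads of these family members can be hard to place: 5.91% of the 75-base stretches (the read length) of *H2-T23* also occur in other annotated genes, against 3.10% for *H2-K1* and 5.56% for *H2-D1*.

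*B2m*, the light chain that all these heavy chains share, had 71186 and 60511 counts in WT and 63634 and 56634 in CD4/ALK4-KO. It was by far the most abundant of the 10 genes and alone held 0.434% to 0.532% of all counts. Its level was 4834 ± 510 CPM in WT and 4967 ± 537 CPM in CD4/ALK4-KO. The log2 fold change was 0.039 with a 95% interval from -0.34 to 0.42 (edgeR adjusted p = 0.89). No 75-base stretch of *B2m* occurs in another gene.

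The heavy chains were then set against *B2m* and against each other within each library, a measure that no scaling of the libraries can move. There were 0.317 and 0.273 counts of *H2-K1* per count of *B2m* in WT and 0.400 and 0.536 in CD4/ALK4-KO, a 1.57-fold higher ratio. For *H2-T23* the ratio to *B2m* was 0.0344 and 0.0323 in WT and 0.0513 and 0.0686 in CD4/ALK4-KO, 1.78-fold higher. For *H2-D1* it was 0.160 and 0.132 in WT and 0.120 and 0.192 in CD4/ALK4-KO, and the genotypes overlapped. Likewise, *H2-D1* counts per *H2-K1* count went from 0.505 and 0.485 in WT to 0.301 and 0.359 in CD4/ALK4-KO, a 1.51-fold lower ratio with no overlap. With 2 libraries against 2, the two-sided exact permutation test cannot give a p below 0.333, which is what these 3 separated ratios gave (adjusted p = 0.424 over 14 ratios), while *H2-D1* over *B2m* gave 1.

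Both subunits of the peptide transporter rose. *Tap1* had 1664 and 1201 counts in WT and 2748 and 2964 in CD4/ALK4-KO, which is 105 ± 23.1 against 235 ± 6.51 CPM. The CD4/ALK4-KO libraries lay close together and well above both WT libraries (log2 fold change 1.16, standard error 0.22, edgeR adjusted p = 0.00037). *Tap2* had 1078 and 718 counts in WT and 1193 and 1745 in CD4/ALK4-KO, with more spread, at 65.9 ± 18.1 against 121 ± 29.1 CPM (log2 fold change 0.87, standard error 0.24, edgeR adjusted p = 0.0068). The ratio of *Tap1* to *Tap2* counts was 1.54 and 1.67 in WT and 2.30 and 1.70 in CD4/ALK4-KO, a 1.23-fold difference in which 1 of the CD4/ALK4-KO libraries lay next to the WT values.

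*Tapbp*, encoding tapasin, had 2114 and 1726 counts in WT and 1788 and 1984 in CD4/ALK4-KO. The genotypes overlapped at 141 ± 18.9 and 155 ± 7.41 CPM, with a log2 fold change of 0.14 and a 95% interval from -0.30 to 0.58 (edgeR adjusted p = 0.66). Of the 75-base stretches of *Tapbp*, 18.6% also occur in other annotated genes, most of them in Gm19412 on the opposite strand, the largest share among the 10 genes.

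Both immunoproteasome subunits of the list rose. *Psmb8* (LMP7) had 2619 and 2607 counts in WT and 4962 and 4714 in CD4/ALK4-KO, or 192 ± 1.14 against 399 ± 24.8 CPM. Its log2 fold change was 1.06 (standard error 0.22, edgeR adjusted p = 0.00070), and leaving out any library kept it between 1.02 and 1.11. Of its 75-base stretches, 9.97% occur also in the antisense gene Gm20496. *Psmb9* (LMP2) had 1015 and 850 counts in WT and 1505 and 1785 in CD4/ALK4-KO, or 68.5 ± 7.94 against 136 ± 12.8 CPM (log2 fold change 0.99, standard error 0.21, edgeR adjusted p = 0.0012). *Tap1* and *Psmb9*, the head-to-head pair, kept nearly the same proportion, with 1.64 and 1.41 counts of *Tap1* per count of *Psmb9* in WT and 1.83 and 1.66 in CD4/ALK4-KO.

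*Nlrc5*, the transactivator, had the steepest rise of the 10. It had 749 and 574 counts in WT and 2327 and 3303 in CD4/ALK4-KO, so that the lower CD4/ALK4-KO library exceeded the higher WT library by a wide margin. Its level went from 48.5 ± 8.64 to 232 ± 50.9 CPM, or 2.25 on the log2 scale (standard error 0.23, edgeR adjusted p = 2.5e-07), and leaving out any library kept this value between 2.00 and 2.49. Only 0.046% of its 75-base stretches occur in another gene.

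The direction of the difference between replicates was counted over the 10 genes. In WT, 9 of the 10 had a higher CPM in replicate 1 than in replicate 2, as did 50.4% of all genes tested, and the exception was *Psmb8*, whose values were almost equal. In CD4/ALK4-KO, 8 of the 10 were higher in replicate 2, as were 51.0% of all genes tested, and *B2m* and *Psmb8* were higher in replicate 1. *Tap2* differed most between replicates, by 0.57 on the log2 scale in WT.

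Per length of annotated exon (counts per kilobase, as parts of a fixed total over the 24321 matched genes), *B2m* led in both genotypes, at 16430 ± 1683 in WT and 19782 ± 2030 in CD4/ALK4-KO. *H2-K1* followed with 1426 ± 295 and 2680 ± 278, then *H2-D1* with 807 ± 189 and 1015 ± 230. In WT, *Psmb8* (165 and 167) and *H2-T23* (181 and 146) did not differ beyond their spread, and nor did *Tap1* (56.1 ± 12.1), *Psmb9* (54.7 ± 6.17) and *Tap2* (50.9 ± 13.8), with *Tapbp* (114 ± 14.8) between these groups. *Nlrc5* was the lowest in both, at 16.7 ± 2.92 in WT and 93.5 ± 21.1 in CD4/ALK4-KO, where it came within the spread of *Tap2* at 110 ± 26.9. In CD4/ALK4-KO, *Tap1* (147 ± 4.88) and *Tapbp* (147 ± 7.81) were level by this length.

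The order at the top and the bottom was the same with the length of 1 principal transcript per gene in place of all exons: *B2m*, *H2-K1* and *H2-D1* first, at 10588, 1667 and 638 in WT, and *Nlrc5* last at 12.1. The place of *Psmb9* was not, since its principal transcript has 1352 bp against 3660 bp of exon. Its WT level became 103 and 87.6 in the 2 libraries, around that of *Tapbp* at 91.6 ± 12.2. By this second length *Tap1* and *Tapbp* were no longer level in CD4/ALK4-KO, at 177 ± 5.82 and 119 ± 6.29. In WT, *Tap1* was then at 67.0 ± 14.6 and *Tap2* at 36.0 ± 9.86.

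The catalytic subunits that *Psmb8*, *Psmb9* and *Psmb10* (MECL-1) displace, *Psmb5*, *Psmb6* and *Psmb7*, went the other way. *Psmb6* fell by 0.68 on the log2 scale (standard error 0.21, edgeR adjusted p = 0.017) and *Psmb7* by 0.73 (standard error 0.22, edgeR adjusted p = 0.012), while *Psmb5* did not pass the test at -0.49 (edgeR adjusted p = 0.078). *Psmb10* had 1666 and 1384 counts in WT and 1585 and 2218 in CD4/ALK4-KO. It did not pass the test at 0.48 on the log2 scale (standard error 0.22, edgeR adjusted p = 0.097).

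Within each library, counts of the immunoproteasome subunit genes were set against those of the genes they displace, ratios that no scaling of the libraries can move. They are ratios of RNA counts and do not measure subunits in assembled proteasomes. There were 1.92 and 2.04 counts of *Psmb8* per count of *Psmb5* in WT and 6.23 and 5.35 in CD4/ALK4-KO, a 2.92-fold higher ratio. For *Psmb9* over *Psmb6* the ratios were 0.336 and 0.287 in WT and 0.964 and 1.01 in CD4/ALK4-KO, 3.18-fold higher. For *Psmb10* over *Psmb7* they were 0.418 and 0.403 in WT and 0.776 and 1.15 in CD4/ALK4-KO, 2.30-fold higher. All 3 ratios lay apart between the genotypes, and each gave an exact permutation p of 0.333, the smallest this design allows (adjusted p = 0.424). Single genes also often lay apart, with CD4/ALK4-KO above WT for 32.7% and below it for 34.0% of all genes tested. T cell markers moved with these ratios, 5.44-fold higher in CD4/ALK4-KO, and their part in the higher ratios was not tested.

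**Figure D2:**
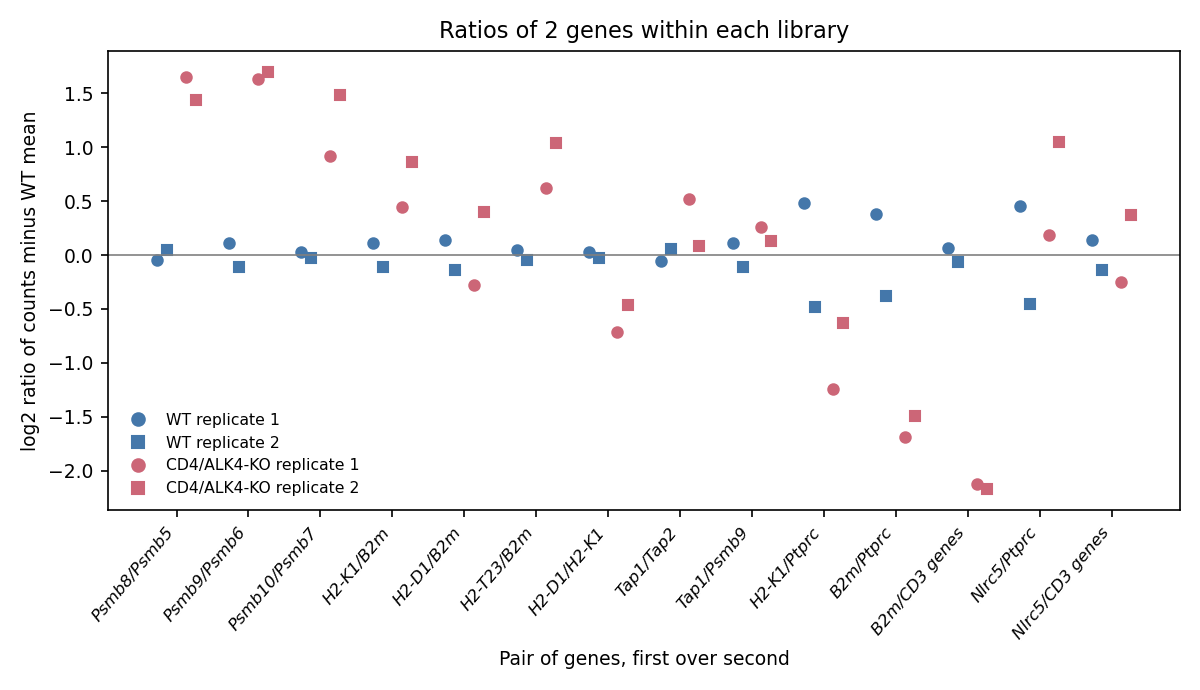
Ratio of the counts of 2 genes within each library on the log2 scale, minus the mean of the 2 WT libraries, for the 14 ratios, with WT in blue and CD4/ALK4-KO in red. The 3 immunoproteasome ratios lie 1.20 to 1.67 above WT on average, *B2m* over the CD3 genes lies 2.15 below it, and *H2-D1* over *B2m* and *Nlrc5* over *Ptprc* or the CD3 genes overlap between the genotypes.

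The constitutive 20S core is the barrel of alpha and beta subunits that does the cutting. Of its 14 genes, 6 fell by the same test, against 15.4% of all genes, and 8 did not pass. For all 14 both CD4/ALK4-KO libraries were below both WT libraries, as they were for 34.0% of all genes. Their median was -0.48 on the log2 scale, and on the leukocyte and CD3 scales described later all 14 were called lower, where 71.7% and 92.0% of all genes were. *Psma7*, an alpha subunit, fell by 0.62 on the log2 scale (standard error 0.22, edgeR adjusted p = 0.031). *Psmb1* and *Psmb4*, with the highest counts beside it, had log2 fold changes of -0.48 (adjusted p = 0.10) and -0.41 (adjusted p = 0.14). The PA28 regulator subunits *Psme1* and *Psme2*, which open the barrel, had log2 fold changes of 0.56 (adjusted p = 0.055) and 0.23 (adjusted p = 0.44) and did not pass the test.

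**Figure D3:**
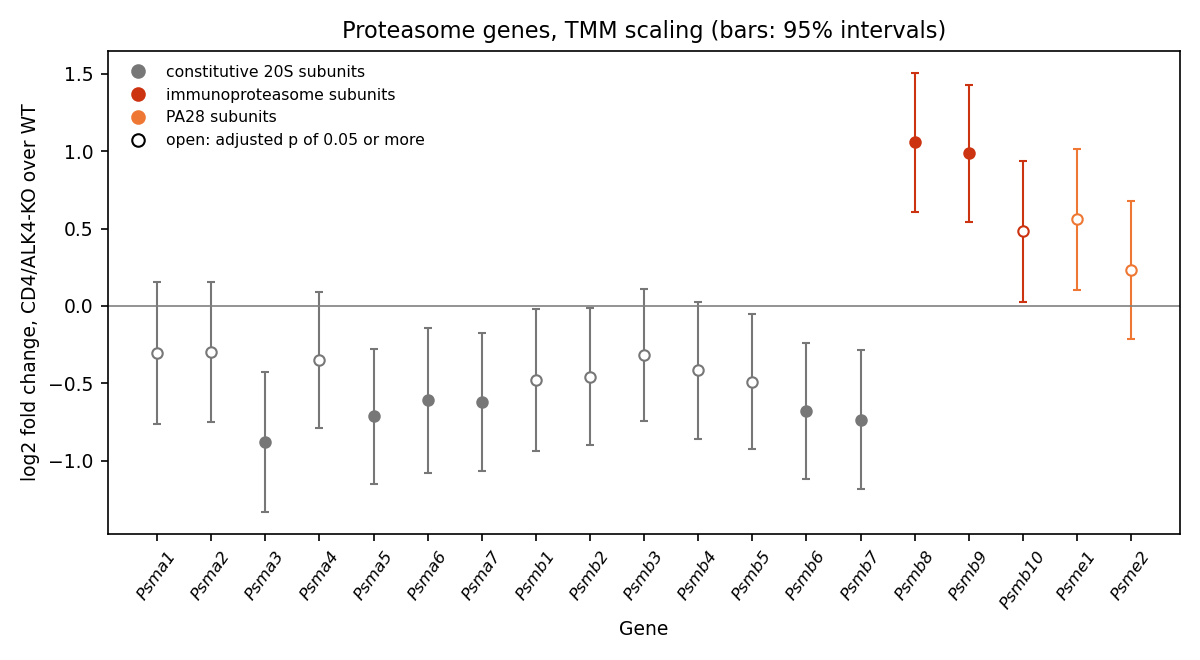
Log2 fold changes between CD4/ALK4-KO and WT under TMM for 14 constitutive 20S subunits (grey), the immunoproteasome subunits (red) and the PA28 subunits (orange), with 95% intervals and open points for an adjusted p of 0.05 or more. All grey points lie below 0, *Psmb8* and *Psmb9* lie near 1, and *Psmb10* lies between at 0.48.

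The fold changes depend on what the libraries are scaled to, because the T cell and leukocyte genes used were themselves higher in CD4/ALK4-KO. Under TMM the 8 leukocyte genes used rose by 0.58 to 2.15 on the log2 scale. Markers of T cells, of CD8 T and NK cells and of B cells were all called higher. Those of macrophages and monocytes had 1 of 14 called in each direction, and those of neutrophils had 3 of 10 called higher. The leukocyte scale therefore does not stand for all leukocytes alike. Scaling to 8 general leukocyte genes, such as *Ptprc* (CD45), shifted the median log2 fold change of all genes by -1.26, and 71.7% of all genes were then called lower and 2.23% higher. On this scale *Nlrc5* was still higher, by 0.98 on the log2 scale (standard error 0.26, edgeR adjusted p = 0.00047). *H2-K1* (-0.60, adjusted p = 0.037), *H2-D1* (-1.18, adjusted p = 4.1e-05), *B2m* (-1.24, adjusted p = 2.2e-05) and *Tapbp* (-1.14, adjusted p = 4.1e-05) were lower. *Tap1*, *Tap2*, *Psmb8*, *Psmb9* and *H2-T23* had log2 fold changes from -0.41 to -0.12 and did not pass the test.

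Scaling to 4 genes of the CD3 complex, the signalling part of the T cell receptor, shifted all genes by -2.19, with 92.0% of them called lower and 0.345% higher. There 9 of the 10 genes were lower, with log2 fold changes from -2.15 for *B2m* to -1.01 for *Tap1*. *Nlrc5* alone had a positive value, 0.087, with a 95% interval from -0.37 to 0.54 (edgeR adjusted p = 0.72). The median of the 10 genes was -0.41 against -1.27 for all genes with the leukocyte genes and -1.30 against -2.19 with the CD3 genes, and since rescaling moves every gene by a like amount, the gap between these medians is fixed by construction.

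**Figure D4:**
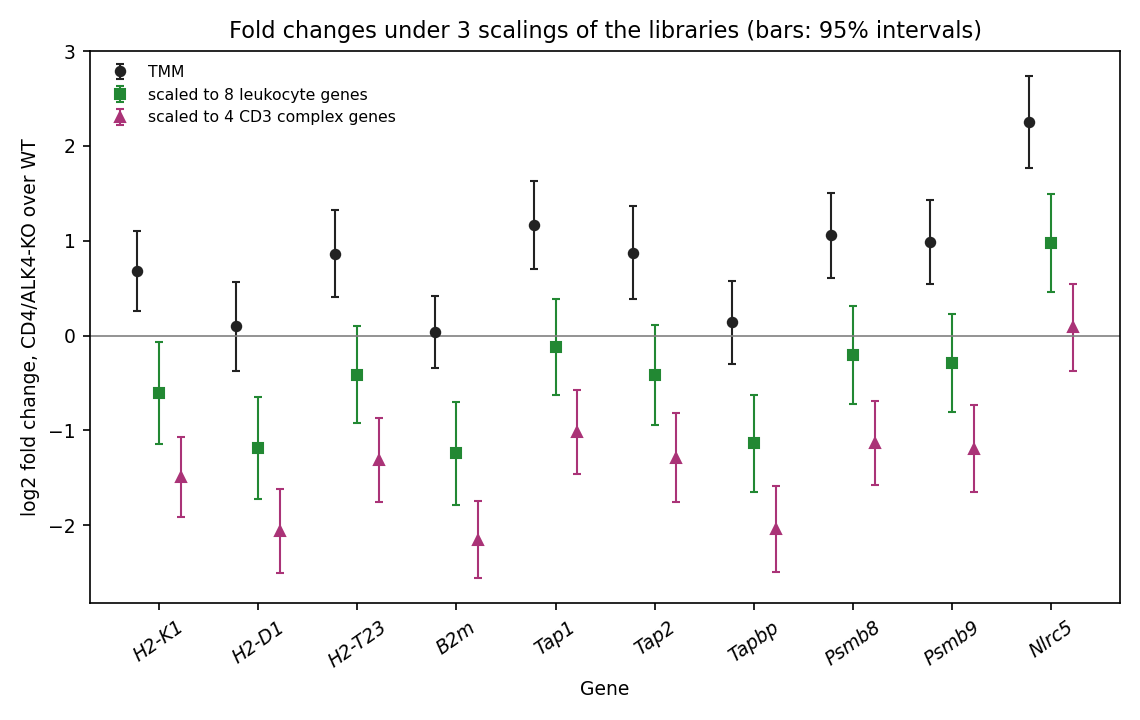
Log2 fold changes of the 10 genes between CD4/ALK4-KO and WT with 95% intervals, with the libraries scaled by TMM (black circles), to 8 leukocyte genes (green squares) or to 4 CD3 complex genes (purple triangles). Each change of scale moves all 10 genes down by a like amount, and *Nlrc5* stays above the others, at 2.25, 0.98 and 0.087.

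Counted directly, there were 26.9 and 24.7 counts of *B2m* per count of the CD3 complex genes in WT and 5.91 and 5.70 in CD4/ALK4-KO, 4.43-fold fewer. Per count of *Ptprc* there were 7.24 and 4.28 counts of *B2m* in WT and 1.73 and 1.98 in CD4/ALK4-KO, 3.01-fold fewer. *H2-K1* per *Ptprc* went from 2.29 and 1.17 to 0.691 and 1.06, where WT replicate 2 and CD4/ALK4-KO replicate 2 were close. *Nlrc5* per count of the CD3 genes was 0.283 and 0.234 in WT and 0.216 and 0.333 in CD4/ALK4-KO, with full overlap (exact permutation p of 1).

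The levels of other cell types' markers are given beside the class I genes, which nearly all of these cells express. Over all genes tested, 17.4% were called higher and 15.4% lower under TMM. Of the T cell markers tested, 13 of 13 were higher in CD4/ALK4-KO, of those of CD8 T and NK cells 10 of 10, and of those of B cells 10 of 10, with summed levels of 468 to 508 against 2601 to 2706, 177 to 238 against 731 to 807, and 72.8 to 86.5 against 263 to 523 CPM. Dendritic cell markers summed to 312 to 333 CPM in WT and 499 to 502 in CD4/ALK4-KO, and 5 of 10 were higher and 1 was lower. Within that sum, *Ccr7* alone had 26.3 and 32.8 CPM in WT and 124 and 134 in CD4/ALK4-KO. Macrophage and monocyte markers (7759 to 8835 against 7410 to 7688 CPM) had 1 of 14 called in each direction, and neutrophil markers (980 to 1483 against 999 to 1585 CPM) had 3 of 10 called higher. Fibroblast markers (8923 to 9257 against 6250 to 6734 CPM), with 5 of 10 lower, and epithelial markers (970 to 997 against 511 to 646 CPM), with 5 of 9 lower and 2 higher, went down. Endothelial markers summed to 95.9 to 106 CPM in WT and 146 to 168 in CD4/ALK4-KO, with 1 of 10 higher and 2 lower. *Pecam1* alone had 22.5 and 42.7 CPM in WT and 106 and 108 in CD4/ALK4-KO, and without it the sum was 73.3 and 63.8 in WT and 40.0 and 60.0 in CD4/ALK4-KO, the other direction. Of the markers above that were counted, none was at 0 in all libraries. Erythroid genes summed to 2148 to 4694 CPM in WT and 1233 to 3063 in CD4/ALK4-KO. Most of that was *Alas2*, with 1963 and 4469 CPM in WT and 2913 and 1175 in CD4/ALK4-KO. The haemoglobin genes on that list had at most 6.93 CPM, and Hbb-bt was at 0 in every library. The part of these cell types in the class I fold changes was not tested.

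**Figure D5:**
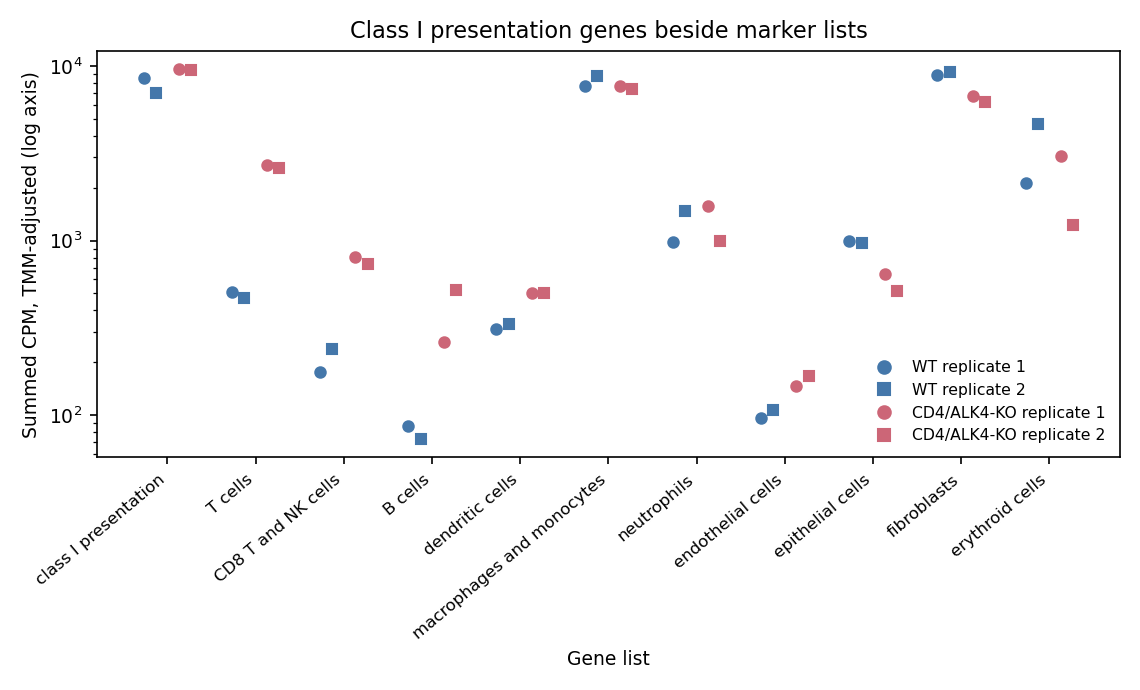
Summed CPM (log axis) of the 10 class I presentation genes and of marker lists of 10 cell types in each library, WT in blue and CD4/ALK4-KO in red. T cell, CD8 T and NK cell and B cell markers lie far apart between the genotypes, whereas the class I sum differs 1.24-fold. Macrophage and fibroblast markers sum to more than T cell markers in every library, but such sums do not rank the amounts of the cell types.

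The rest of the class I pathway was counted from lists. Over all genes tested, 17.4% were called higher and 15.4% lower under TMM. Of 12 other presentation genes, 1 was higher, the tapasin-related *Tapbpl* (log2 fold change 1.00, edgeR adjusted p = 0.0028), and 2 were lower, the chaperone *Canx* (-0.79, adjusted p = 0.006) and the translocon subunit *Sec61b* (-0.65, adjusted p = 0.019), with a median of 0.19. *Tapbpl* and *Sec61b* are named after their values were seen. *Pdia3*, the thiol oxidoreductase of the loading complex, had 15192 and 15668 counts in WT and 11037 and 10417 in CD4/ALK4-KO (log2 fold change -0.36, adjusted p = 0.19). For *Calr*, encoding calreticulin, the log2 fold change was -0.017 (adjusted p = 0.96). On the leukocyte scale the median of the 12 was -1.07, with 11 lower, against a median of -1.27 and 71.7% lower over all genes.

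Of 16 other class I and class I-like heavy chain genes, 14 could be tested. Most are of the Q, T and M regions, but the list also holds *H2-K2*, *H2-L*, *Mr1* and *Cd1d1*. Under TMM 7 were higher, against 17.4% of all genes, and 1 was lower, against 15.4%. Their median log2 fold change was 1.00, and *Cd1d1* and *H2-K2* were among the 7. *H2-Q4* had 1704 and 1206 counts in WT and 2200 and 3222 in CD4/ALK4-KO (log2 fold change 1.06, edgeR adjusted p = 0.0014), and *H2-Q6* had 770 and 650 against 1590 and 2182 (1.57, adjusted p = 1.2e-05). *H2-M3*, which presents formylated peptides, did not pass the test at 0.53 (adjusted p = 0.060). *H2-Q1* and *H2-Q2*, named after their values were seen, ran against each other: *H2-Q1* had 360 and 263 counts in WT and 13 and 15 in CD4/ALK4-KO (log2 fold change -4.30, adjusted p = 2.8e-08), while *H2-Q2* had 16 and 9 in WT and 119 and 45 in CD4/ALK4-KO (log2 fold change 2.88, adjusted p = 0.00031). Genes of this family share much sequence, so how reads were divided among them is uncertain. Scaled to the leukocyte genes, the median of the 14 was -0.27, with 1 called higher, against -1.27 and 2.23% higher over all genes.

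Genes that act upstream of class I were mostly higher under TMM. Of 20 regulators of class I genes, 13 rose, against 17.4% of all genes tested, with a median of 0.68. With the leukocyte genes as scale the median was -0.59 and 9 were lower, against a median of -1.27 and 71.7% lower over all genes. *Irf1*, a factor that binds interferon response elements, had 1923 and 1637 counts in WT and 3492 and 4361 in CD4/ALK4-KO (log2 fold change 1.31, edgeR adjusted p = 0.000105), and *Creb1*, a factor of the X2 box, rose by 0.65 on the log2 scale (adjusted p = 0.031). Of the RFX complex through which *Nlrc5* acts, *Rfx5* (0.91, adjusted p = 0.01) and *Rfxank* (0.90, adjusted p = 0.017) rose and *Rfxap* did not pass the test at 0.061 (adjusted p = 0.89). These 3 genes are named after their values were seen.

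The interferon receptor and kinase list had 7 of 10 genes higher under TMM, against 17.4% of all genes, with a median of 0.87. On the leukocyte scale its median was -0.40, where that of all genes was -1.27. *Ifngr1*, the ligand-binding chain of the interferon-gamma receptor, had 2577 and 2864 counts in WT and 5802 and 6083 in CD4/ALK4-KO (log2 fold change 1.29, edgeR adjusted p = 8.9e-05), and *Jak1* rose by 1.01 (adjusted p = 0.0013). *Socs3*, an inhibitor of cytokine signalling, did not pass the test at -0.047 (adjusted p = 0.89). Of 19 tested genes of the interferon-gamma-inducible list, 13 rose under TMM, also beside 17.4% of all genes, with a median of 0.77. The leukocyte scale gave a median of -0.51, again against -1.27 for all genes. *Gbp2* and *Iigp1*, which had the largest counts of them, did not pass the test, with log2 fold changes of 0.50 (adjusted p = 0.07) and 0.37 (adjusted p = 0.22), whereas *Ifi47* rose by 1.04 on the log2 scale (adjusted p = 0.0011).

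The class II genes, which the related transactivator *Ciita* controls, gave a comparable picture. Under TMM 9 of 10 were higher, against 17.4% of all genes, with a median of 0.95. On the leukocyte scale their median was -0.34 (-1.27 for all genes). *H2-Aa*, a class II alpha chain, had 15494 and 12190 counts in WT and 17540 and 19031 in CD4/ALK4-KO (log2 fold change 0.57, edgeR adjusted p = 0.036). *Cd74*, the invariant chain, had 10759 and 7531 against 13294 and 19968 (1.03, adjusted p = 0.0016). *Ctss*, encoding the protease cathepsin S, did not pass the test at -0.016 (adjusted p = 0.96). Among cell types that express class II, 10 of 10 B cell markers were higher in the same libraries. Of the dendritic cell markers, 5 of 10 were higher and 1 was lower. Of the macrophage and monocyte markers, 1 of 14 was called in each direction. The part of these cell types in the class II values was not tested.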

How the data were processed

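RNA-Seq libraries of 75 bp single-end reads were prepared with the TruSeq RNA v2 kit, which does not mark strand. By the methods, the authors aligned reads to mm10 with HISAT2 and counted them with htseq-count (intersection-nonempty option), and the authors deposited raw counts per gene symbol. The annotation, the strand option and tool versions are not given in the sources used here. Groups and replicates came from the labels. The deposited counts of 25239 symbols were fitted with edgeR 4.0.16 (R 4.3.3): filterByExpr kept 13919 genes, TMM scaled the libraries, and a robust quasi-likelihood test with genotype as the only term was adjusted by Benjamini-Hochberg and called at 0.05. DESeq2, by which the study tested, was an alternative (version 1.42.0). Standard errors were derived from the F statistic. Replicates differed by more than sampling noise (chi-square over its degrees of freedom 13.3 in WT, 24.0 in CD4/ALK4-KO). Counts at these depths leave little counting error for the 10 genes (at least 574 counts each), so that the number of libraries limits the precision.

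Ratios were raw counts of 2 genes in the same library, tested on the log2 scale with a two-sided exact permutation test. Levels per length and gene locations used GENCODE M21 on GRCm38, which matched 24321 symbols. Promoters are from RefSeq (GRCm38.p6). No protein sequences were used here, and protein identity was not computed. The CD3 scale used *Cd3d*, *Cd3e*, *Cd3g* and *Cd247*. The script was tested on simulated data. Named by rule were the 10 genes, the 3 genes with the largest mean counts in each pathway list, the genes of the ratios, and *Acvr1b*, *Cd4* and *Ptprc* as checks. For 1 gene that the rule names, no values are reported here. The 10 genes and all lists were chosen with earlier results of these data known.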

Additional observations from a re-analysis of the deposited data

How the results depend on the processing

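The count of 7 class I presentation genes called higher and 0 lower, and the median of 0.87, were the same or nearly so with DESeq2's size factors, upper quartile scaling, without the filter, with a minimum of 10 counts in each library and DESeq2's Wald test. Scaling to the CD3 complex genes gave 0 higher and 9 lower with a median of -1.30 (48 and 12803 over all genes), and scaling to the leukocyte genes gave 1 higher and 4 lower with a median of -0.41 (311 and 9985). On those scales the log2 fold changes that turned were *H2-K1* (-1.49 and -0.60), *H2-D1* (-2.06 and -1.18), *B2m* (-2.15 and -1.24), *Tap1* (-1.01 and -0.12), *Tap2* (-1.29 and -0.41), *Tapbp* (-2.04 and -1.14), *Psmb8* (-1.13 and -0.21), *Psmb9* (-1.19 and -0.29) and *H2-T23* (-1.31 and -0.41). The T cell and leukocyte genes used were themselves higher in CD4/ALK4-KO, which by construction lowers every gene. Upper quartile scaling gave *B2m* -0.032. Leaving out each library in turn gave 2 to 7 genes called higher and 0 lower, a median of 0.66 to 1.03, and 1103 to 2923 higher and 754 to 2618 lower calls over all genes. The loss came without WT replicate 2, where *H2-K1*, *Tap1*, *Tap2*, *Psmb9* and *H2-T23* no longer passed. The cause was not tested. Of the values not called, these changed sign within their ranges: *H2-D1* from -0.15 to 0.36, *B2m* from -0.073 to 0.14, the ratio of *H2-D1* to *B2m* from -0.27 to 0.40 and that of *Nlrc5* to the CD3 genes from -0.25 to 0.37 (log2). With the replicate number as a block (replicate block), 6 genes were called, *H2-K1* being lost at an adjusted p of 0.068, with 1768 higher and 1444 lower calls over all genes. The labels tie the numbers to nothing, and same-numbered libraries deviated with a correlation of -0.24. A crossed pairing, chosen after seeing the data, called 7 genes, and 3118 and 3037 over all genes.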

Other observations

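The stretch of chromosome 17 from *Tapbp* to *H2-T23* (33915899 to 36032855) was described because 8 of the 10 genes lie in it. It held 108 genes that were tested, 27 of them (25%) higher and 12 (11.1%) lower in CD4/ALK4-KO. Over all genes tested, 17.4% were called higher and 15.4% lower. Among the 100 that are not class I presentation genes of the list, 21 were higher and 12 lower, with a median log2 fold change of -0.053, close to the median of -0.0082 over all genes tested. This observation was made after the values were seen.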
